A study of Papio hamadryas with 14 samples.

Results

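The genes described here act in mitosis: cyclins and the cyclin-dependent kinase that start it, the Aurora and Polo kinases, the spindle checkpoint, the kinetochore, the spindle, the cytokinesis machinery and the proteins that shape chromosomes. The members were a list of 52 genes taken by name, and 50 of them, among the 9580 genes named by the annotation of the array, had a probe set with 1 gene symbol; TACC3 and NCAPH had none. Each gene was read from its brightest probe set on the fetal arrays, and dim genes were kept. The mean of 25 of the 50 members exceeded the all-probe-set median. The samples were whole kidneys of the baboon Papio hamadryas, with no treatment and no genotype named in the labels. Adult kidneys came from 3 animals of 6, 12 and 7 years (replicates 1, 2 and 3), and fetal kidneys were taken at 60, 90, 125 and 160 days of gestation, written 60dG, 90dG, 125dG and 160dG, with 2 arrays for the first and 3 for each later stage. Total RNA was hybridised to human Affymetrix arrays, so baboon transcripts were read with human probes. The labels call the fetal samples biological replicates.

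A dividing cell builds up cyclin A and B messages late in its cycle, switches on CDK1, condenses its chromosomes and attaches them to a spindle. The spindle checkpoint holds the cell until every kinetochore is attached. The anaphase-promoting complex then marks cyclin B and securin for destruction, and the cell divides. Most of these messages are made mainly in cycling cells, which is why they are widely read as markers of proliferation. The fetal kidney grows from a cycling nephrogenic zone, and the adult kidney has little division. In whole-kidney RNA, fewer dividing cells and less message per dividing cell cannot be told apart.

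Some arrays stood apart before any member was considered. The array of 60dG replicate 2 carried adrenal messages, with a summed signal of 7579 over 5 adrenal markers, against 165.7 on 60dG replicate 1; the steroid enzyme CYP17A1 was at 4960 and 8.7 on these arrays. On 90dG replicates 2 and 3 the GAPDH 3′ to 5′ control ratio, which rises with RNA degradation or short cDNA, was 2.46 and 3.43, and on the other fetal arrays it was between 1.62 and 1.99. All 8 kidney genes checked on the array, among them PAX2 and PAX8, exceeded the all-probe-set median, and the water channel AQP1, a proximal tubule gene, averaged 2586 ± 794 at 160dG and 280 ± 28.4 at 60dG (SD, n = 3 and 2). Counts over all members are also given without these arrays.

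All 50 members had a lower fitted value at 160dG than at 60dG, and 32 of them passed the test as lower (limma, Benjamini-Hochberg adjusted p under 0.05 over all genes), where 2.69% of all genes did. None passed as higher, and none was higher at an unadjusted p under 0.05. The median member differed by -1.67 on the log2(signal + 16) scale, against 0.01 over all genes. Of the 32, 31 changed by at least 2-fold and 18 by at least 4-fold. In 49 members every 160dG array lay below both 60dG arrays, where 18.2% of all genes did; ECT2 was the exception. A straight line through the 4 stages fell in 28 members, beside 2.62% of all genes, and rose in none. At an unadjusted p under 0.05 it fell in 42, beside 9.67% of all genes, and rose in none. Any difference among the stages passed in 28 members, beside 8.67% of all genes. Without 60dG replicate 2, 22 members passed as lower at 160dG than at 60dG and 23 passed for the line; without 60dG replicate 1 the counts were 19 and 23. Without 90dG replicates 2 and 3, 33 members were lower at 160dG than at 60dG, the line fell in 35 and stages differed in 22. In the 2 fits without a 60dG array, the single 60dG array left was taken to vary like the other groups. The same was assumed of 90dG replicate 1 in the fit without 90dG replicates 2 and 3. Leaving out each of the 11 arrays in turn ended the 160dG against 60dG call in 13 of the 32 members, each of them without 60dG replicate 1 (CCNB1, AURKB, PLK1, PLK4, TTK, CENPE, KIF15, KIF2C, KIF4A, KIF23, TOP2A, SMC4 and NCAPG).

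**Figure D1:**
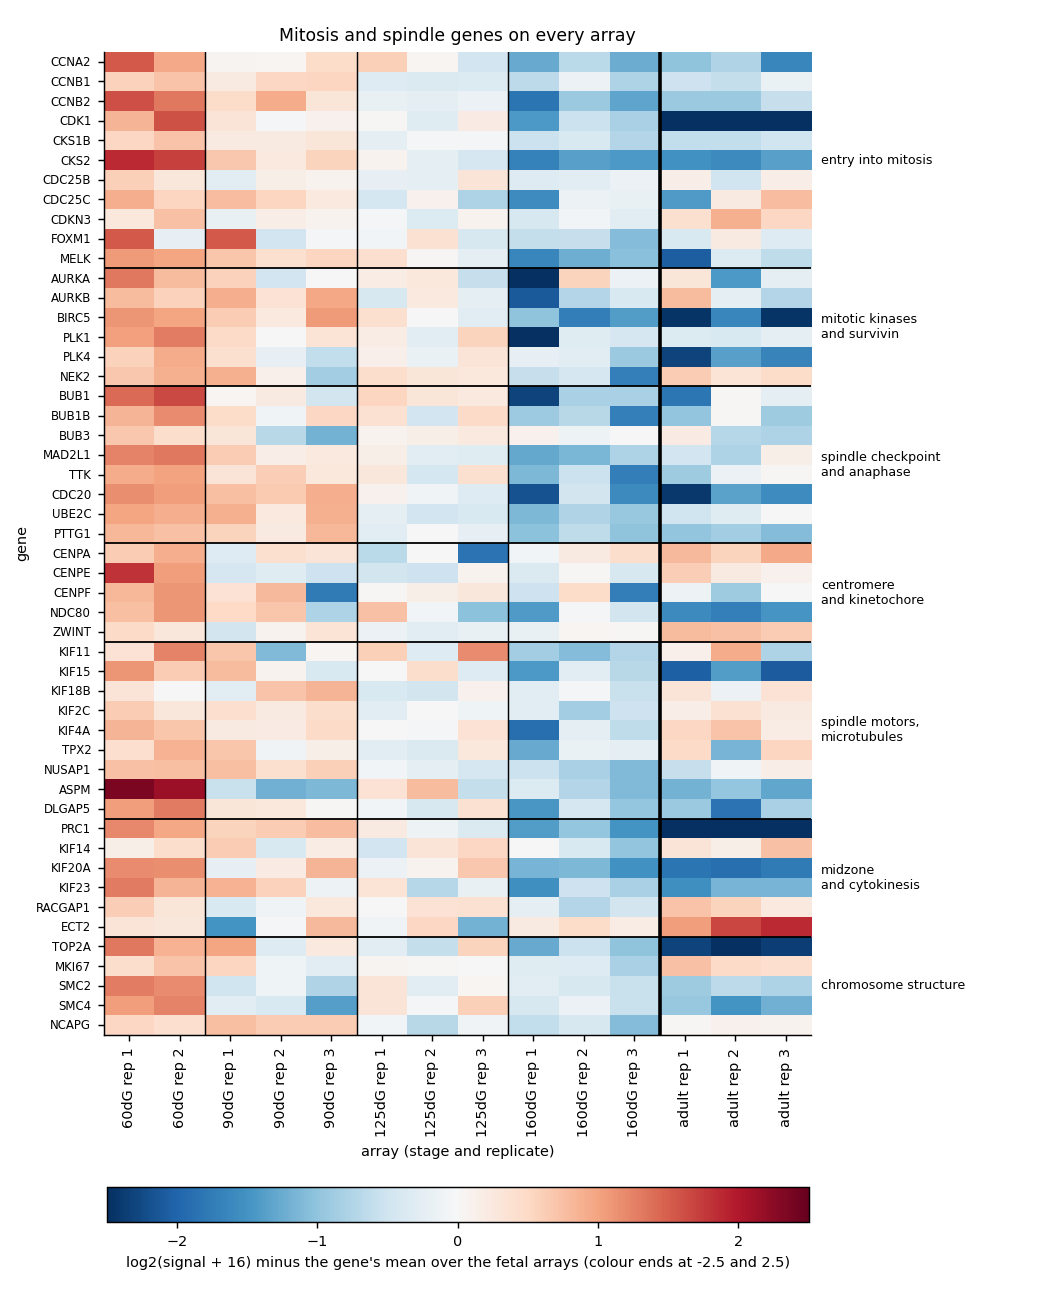
Every member (rows, by role) on every array (columns, from 60dG to 160dG and then adult), coloured by log2(signal + 16) minus the mean of that gene over the fetal arrays. Members are mostly above their own mean at 60dG and below it at 160dG; the adult columns were measured on another array type.

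The median of the members on each array, each gene centred on its own fetal mean, was 0.86 and 0.89 log2 units at 60dG, 0.46, 0.19 and 0.25 at 90dG, 0.00, -0.08 and -0.07 at 125dG, and -0.96, -0.42 and -0.80 at 160dG. No stage overlapped the next on this measure. The median of all genes, centred in the same way, stayed between -0.02 and 0.05 on the fetal arrays. Summed over the members, the signal was 23538 to 23771 at 60dG, 13390 to 15934 at 90dG, 10860 to 12023 at 125dG and 6604 to 8428 at 160dG.

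Among the 11 genes of entry into mitosis, 7 passed as lower at 160dG and 8 passed for the line, with a median difference of -1.42. CKS2, a small subunit that binds CDK1, had signals of 1469 and 1326 at 60dG, 632, 470 and 585 at 90dG, 420, 328 and 291 at 125dG, and 111, 142 and 134 at 160dG. No stage overlapped another, and CKS2 fell by 3.29 ± 0.21 (SE) on the log2 scale at 160dG against 60dG (adjusted p = 1.80e-06), the lowest difference of any member. CCNB2, a B-type cyclin, was at 1489 and 1218 at 60dG, 661, 922 and 587 at 90dG, 416, 404 and 428 at 125dG, and 123, 244 and 180 at 160dG. It too was separated at every stage, and fell by 2.83 ± 0.25 (adjusted p = 2.71e-05). CDK1, the kinase these cyclins activate, had 1282 and 2158 at 60dG, 882, 691 and 754 at 90dG, 721, 570 and 806 at 125dG, and 249, 476 and 392 at 160dG. Its 90dG and 125dG arrays overlapped, while the 60dG arrays lay above all others and the 160dG arrays below; CDK1 fell by 2.16 ± 0.27 (adjusted p = 0.000212). CCNB1, the main mitotic cyclin, was flatter. It read 306 and 335 at 60dG, 237, 292 and 296 at 90dG, 157, 152 and 155 at 125dG, and 122, 179 and 110 at 160dG. All 90dG arrays lay above all 125dG arrays, and 160dG overlapped 125dG; CCNB1 fell by 1.16 ± 0.26 (adjusted p = 0.0146), a call that was lost without either 60dG array or without 160dG replicate 3.

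Cyclin A2 (CCNA2), the kinase MELK and the CDK1 subunit CKS1B also fell, with differences of -2.30 ± 0.31, -2.32 ± 0.31 and -1.16 ± 0.16. CDC25C, a phosphatase that activates CDK1, passed for the line alone (-0.15 ± 0.04 per 10 days, adjusted p = 0.0489), and leaving out any 1 array other than 160dG replicate 2 ended that call. Its relative CDC25B had the smallest difference of this role, -0.68 ± 0.24 (adjusted p = 0.115), with 238, 246 and 271 at 160dG against 460 and 370 at 60dG. The phosphatase CDKN3 (-0.74 ± 0.26) and the transcription factor FOXM1 (-1.42 ± 0.61), which drives many G2 and M genes, did not pass either. FOXM1 was uneven between replicates: 16.5, 17.0 and 7.40 at 160dG, against 127 and 27.0 at 60dG.

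**Figure D2:**
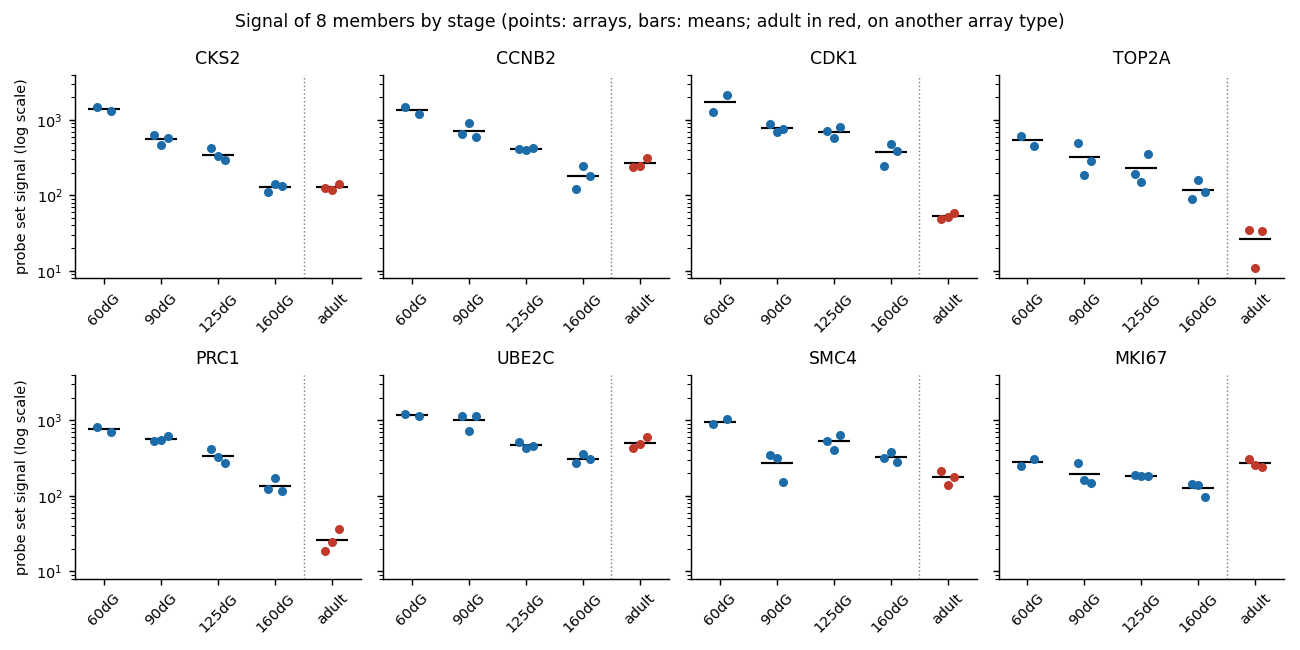
Probe set signal (log axis) of 8 members by stage, with 1 point per array and bars at the group means; adult arrays, of another type, are in red right of the dotted line. CKS2, CCNB2 and PRC1 separate at every fetal stage, SMC4 is lowest at 90dG among the first 3 stages, UBE2C is lower from 125dG on, and the adult points lie under the fetal ones for CDK1, TOP2A and PRC1.

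Of the 6 mitotic kinases with their partner survivin, 4 passed as lower at 160dG and 3 for the line. Survivin (BIRC5), the subunit that places Aurora B on chromosomes, was at 398 and 365 at 60dG, 284, 211 and 386 at 90dG, 237, 176 and 144 at 125dG, and 79.8, 42.1 and 57.1 at 160dG. The 160dG arrays lay under all others, and BIRC5 fell by 2.42 ± 0.32 (adjusted p = 0.000411). PLK1, the Polo kinase of mitotic entry and spindle building, read 398 and 477 at 60dG, 266, 189 and 242 at 90dG, 216, 149 and 283 at 125dG, and 11.3, 148 and 134 at 160dG. One 160dG array was far below the other two, and the difference of -2.36 ± 0.58 (adjusted p = 0.0256) did not pass without either 60dG array. AURKB, the Aurora kinase of the chromosomal passenger complex, fell by 1.75 ± 0.47 (adjusted p = 0.0388), also lost without 125dG replicate 1 or 3, 160dG replicate 1 or 60dG replicate 2. PLK4, which starts centriole duplication, had the smallest difference of this role, -1.22 ± 0.32 (adjusted p = 0.0351), and did not pass for the line. AURKA, the Aurora kinase of the spindle poles, and NEK2, a centrosome kinase, had differences of -1.76 ± 0.67 and -1.68 ± 0.50 that missed the threshold (adjusted p = 0.157 and 0.0663). At 160dG AURKA ranged between 9.20 and 196 on 3 arrays.

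The 8 genes of the spindle checkpoint and anaphase had the lowest median difference of the 7 roles, -2.11; 7 of them passed as lower at 160dG, and the same number passed for the line. BUB1, a checkpoint kinase at the kinetochore, had 289.5 and 342 at 60dG, 102, 118 and 67.0 at 90dG, 149, 125 and 120 at 125dG, and 7.10, 49.2 and 49.3 at 160dG. The 60dG arrays were the highest and the 160dG arrays the lowest, with 90dG and 125dG between them, and BUB1 fell by 2.84 ± 0.44 (adjusted p = 0.00123). CDC20, the activator of the anaphase-promoting complex, was at 615 and 570 at 60dG, 465, 431 and 514 at 90dG, 291, 250 and 212 at 125dG, and 46.9, 190 and 78.4 at 160dG. No 2 stages overlapped for CDC20, which fell by 2.51 ± 0.37 (adjusted p = 0.000891). The checkpoint genes MAD2L1, BUB1B and TTK fell too, with differences of -2.34 ± 0.31, -2.12 ± 0.36 and -2.09 ± 0.40. Securin (PTTG1), which holds back separase, fell by 1.67 ± 0.19, and the difference of UBE2C, the ubiquitin-conjugating enzyme of the anaphase-promoting complex, was -1.88 ± 0.21.

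BUB3, the partner of BUB1, was the member of this role that did not pass. Its signals were 1702 and 1447 at 60dG, 1315, 651 and 460 at 90dG, 1127, 1178 and 1271 at 125dG, and 1156, 969 and 1077 at 160dG. The low values were on 90dG replicates 2 and 3, the arrays with the raised GAPDH ratio, whose part in them was not tested. The difference of 160dG from 60dG was -0.55 ± 0.30 (adjusted p = 0.355). BUB3 had 3 further probe sets, with differences of -1.05, -0.80 and -0.97, the first and last of which passed (adjusted p = 0.0109 and 0.0368).

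Centromere and kinetochore genes gave the weakest calls. None of the 5 passed for the line and 1 passed as lower at 160dG, although all 5 had negative differences with a median of -1.55. At an unadjusted p under 0.05, 2 fell for the line and 3 were lower at 160dG, beside 9.67% and 8.76% of all genes. None of the 5 exceeded the all-probe-set median. CENPE, a kinesin that carries chromosomes along the spindle, was at 154 and 83.8 at 60dG, 20.4, 23.4 and 18 at 90dG, 19, 17.8 and 35.8 at 125dG, and 21.5, 33.3 and 20.7 at 160dG. It was high at 60dG alone, and its later stages overlapped; the difference of 160dG from 60dG was -1.67 ± 0.41 (adjusted p = 0.0239), lost without 60dG replicate 1 or 160dG replicates 1 or 3. NDC80, which binds microtubules at the kinetochore, differed by -1.57 ± 0.58 (adjusted p = 0.145) and CENPF by -1.55 ± 0.68 (adjusted p = 0.228). The centromeric histone CENPA, with 119, 147 and 175 at 160dG against 201 and 248 at 60dG, differed by -0.57 ± 0.45 (adjusted p = 0.582). ZWINT, a kinetochore scaffold protein, had 153, 182 and 179 at 160dG against 252 and 217 at 60dG, a difference of -0.42 ± 0.28 (adjusted p = 0.484).

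Spindle motors and microtubule proteins had 9 of 10 members on the array, of which 6 passed as lower at 160dG and 5 for the line, with a median difference of -1.67. ASPM, a spindle pole protein needed for brain size in humans, had 269 and 232 at 60dG, 21.9, 8.40 and 9.70 at 90dG, 55.6, 80.7 and 21.0 at 125dG, and 27.9, 17.8 and 9.90 at 160dG. It was high at 60dG and low at every later stage; ASPM fell by 2.98 ± 0.46 at 160dG against 60dG (adjusted p = 0.00123) and did not pass for the line (adjusted p = 0.184). DLGAP5, a spindle assembly factor, read 488 and 583 at 60dG, 285, 274 and 233 at 90dG, 215, 168 and 299 at 125dG, and 73.2, 165 and 108 at 160dG. It fell by 2.12 ± 0.31 (adjusted p = 0.00092). NUSAP1, a spindle microtubule protein, fell by 1.56 ± 0.22, and the kinesins KIF4A, KIF15 and KIF2C had differences of -1.69 ± 0.43, -1.67 ± 0.44 and -0.998 ± 0.24, calls that did not hold without either 60dG array. KIF18B, a kinesin that trims microtubule ends, had the smallest difference of this role (-0.46 ± 0.35, adjusted p = 0.553), with 151, 184 and 124 at 160dG against 240.1 and 191 at 60dG. KIF11, the motor that separates the spindle poles, and TPX2, the activator of Aurora A, had differences of -1.69 ± 0.57 and -1.19 ± 0.37 (adjusted p = 0.102 and 0.0802).

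For midzone and cytokinesis, 3 of 6 members passed by either measure and the median difference was -1.48. PRC1, which bundles the microtubules of the midzone, had 826 and 702 at 60dG, 525, 553 and 616 at 90dG, 412, 322 and 270 at 125dG, and 123, 172 and 115 at 160dG. The 4 stages did not overlap, and PRC1 fell by 2.37 ± 0.23 (adjusted p = 3.78e-05). KIF20A, a midzone kinesin, was at 222 and 219 at 60dG, 74.3, 105 and 172 at 90dG, 79.0, 94.8 and 150 at 125dG, and 30.8, 31.8 and 20.7 at 160dG. It fell by 2.44 ± 0.39 (adjusted p = 0.00146), and the difference of KIF23, the motor of the centralspindlin complex, was -2.02 ± 0.47 (adjusted p = 0.0185). The partners that act on RhoA at the cleavage site did not pass. RACGAP1 differed by -0.95 ± 0.32 (adjusted p = 0.105). ECT2, the exchange factor it recruits, read 40.8, 50.2 and 39.3 at 160dG against 44.8 and 43.1 at 60dG, with values between 1.10 and 68.5 in between; its difference of -0.02 ± 0.62 was the smallest of any member (adjusted p = 0.994). KIF14 differed by -0.75 ± 0.45 (adjusted p = 0.418).

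Chromosome structure had 5 of 6 members on the array, with 4 lower at 160dG and 2 called for the line. TOP2A, the topoisomerase that untangles replicated DNA, had 620 and 449 at 60dG, 489, 186 and 286 at 90dG, 193, 151 and 358 at 125dG, and 89.6, 159 and 111 at 160dG. Neighbouring stages overlapped, and TOP2A fell by 2.03 ± 0.40 (adjusted p = 0.00693), a call lost without 60dG replicate 1. SMC2 and SMC4 form the core of condensin. SMC2 was at 692 and 646 at 60dG, 190, 255 and 157 at 90dG, 348, 227 and 282 at 125dG, and 222, 205 and 182 at 160dG. SMC4 was at 883 and 1024 at 60dG, 344, 321 and 152 at 90dG, 534, 405 and 645 at 125dG, and 314, 380 and 281 at 160dG. Both were high at 60dG and near their 160dG level already at 90dG; their differences were -1.65 ± 0.25 and -1.51 ± 0.30 (adjusted p = 0.00113 and 0.00728), and neither passed for the line. The condensin subunit NCAPG had 229 and 211 at 60dG and 271, 249 and 248 at 90dG, then 146, 88.7 and 144 at 125dG and 95.3, 114 and 64.5 at 160dG. Its 160dG minus 60dG difference was -1.17 ± 0.31 (adjusted p = 0.0354).

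MKI67, whose protein Ki-67 coats mitotic chromosomes and is the usual stain for cycling cells, just missed the threshold. It read 249 and 303 at 60dG, 268, 164 and 146 at 90dG, 187, 182 and 181 at 125dG, and 142, 139 and 95.8 at 160dG. All 160dG arrays lay below all earlier ones, and the difference was -1.05 ± 0.30 (adjusted p = 0.0505). Its 2 further probe sets did not show the same size of change, at 0.21 ± 0.31 and -0.67 ± 0.37 (adjusted p = 0.806 and 0.366).

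**Figure D3:**
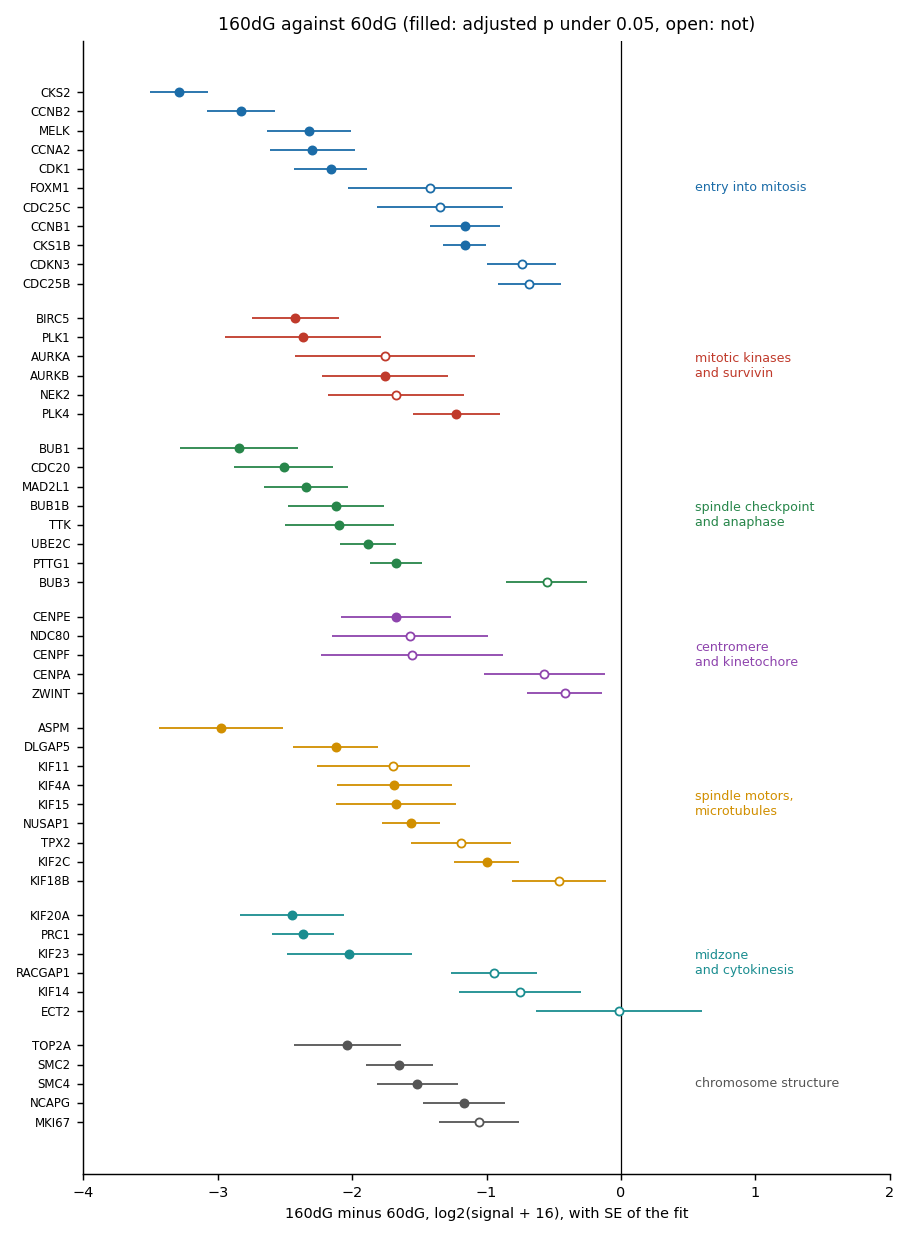
Fitted 160dG minus 60dG difference in log2(signal + 16) for each member, by role, with bars of 1 standard error. All 50 points lie below 0; the 32 filled points have an adjusted p under 0.05 and the open ones do not.

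Each step between successive stages was tested on its own. Between 60dG and 90dG, 6 members passed as lower (CDK1, CKS2, CENPE, ASPM, SMC2 and SMC4), where 1.45% of all genes did, and the members' median step was -0.60. The largest step was that of ASPM, -3.21 ± 0.46 (adjusted p = 0.00298); KIF18B had the highest, at 0.25. The steps of SMC2 and SMC4 were -1.69 ± 0.25 and -1.82 ± 0.30 (adjusted p = 0.00355 and 0.00514). From their second brightest probe sets neither step passed (limma, adjusted p = 0.850 and 0.675). CENPE had a step of -1.83 ± 0.41 (adjusted p = 0.0253), CKS2 of -1.30 ± 0.21 (adjusted p = 0.00514) and CDK1 of -1.09 ± 0.27 (adjusted p = 0.0371). This step rests on few arrays: 3 members passed without 60dG replicate 1 (ASPM, SMC2 and SMC4), 3 without 60dG replicate 2 (CKS2, ASPM and SMC2), and 2 (SMC2 and SMC4) without 90dG replicates 2 and 3. On 90dG replicate 1, where the GAPDH ratio was 1.78, SMC4 was at 344, SMC2 at 190, ASPM at 21.9 and CENPE at 20.4, all under the 60dG arrays. These are values of 1 array, and the part of RNA quality in this step was not tested.

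Between 90dG and 125dG the members moved least, with a median step of -0.22 and 2 passing as lower, UBE2C and NUSAP1, beside 0.866% of all genes. UBE2C read 1211 and 1142 at 60dG, 1133, 719 and 1135 at 90dG, 509, 431 and 458 at 125dG, and 270, 354 and 305 at 160dG. It therefore held near its first level on 2 of the 90dG arrays and then had a step of -1.04 ± 0.19 (adjusted p = 0.0197). NUSAP1 was at 620 and 624 at 60dG, 626, 488 and 561 at 90dG, 348, 305 and 271 at 125dG, and 246, 202 and 161 at 160dG, with a step of -0.83 ± 0.19 (adjusted p = 0.0455). ASPM had the highest step here, 1.14 ± 0.41, which did not pass (adjusted p = 0.162). The count was 1 without either 60dG array, 90dG replicate 1 or 2, or 160dG replicate 2, and 0 without 90dG replicate 3 or any 125dG array. In the full set 13 members were lower at an unadjusted p under 0.05, where 9.32% of all genes were. At the same threshold 4 members were higher (BUB3, ASPM, SMC2 and SMC4), where 8.36% of all genes were.

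Between 125dG and 160dG the median step was -0.73, the largest of the 3 when not divided by days. Yet 2 members passed, CKS2 and PRC1, beside 0.104% of all genes. At an unadjusted p under 0.05, 27 members were lower, where 3.75% of all genes were, and 1 was higher, where 3.11% were. The step of CKS2 was -1.31 ± 0.19 (adjusted p = 0.0191) and that of PRC1 -1.2 ± 0.21 (adjusted p = 0.0403). BUB1 had the lowest step, -1.67 ± 0.39 (adjusted p = 0.190), and CENPA the highest, 1.05 ± 0.40 (adjusted p = 0.628). The count was 1 without either 60dG array or any 90dG array, 0 without any 125dG array or 160dG replicate 1 or 3, and 4 without 160dG replicate 2. All 3 steps were downward in 33 members. The largest drop lay in this step in 25 members, in the first step in 17 and in the second in 8. These sizes were not divided by the days of each step, and the first step is the shortest.

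The first and last steps share no array, so their difference per 10 days could be tested. No member passed, beside 0.501% of all genes (limma). At an unadjusted p under 0.05, the first step was the lower one per 10 days in 6 members, beside 6.15% of all genes. These were BUB3, CENPA, CENPE, ASPM, SMC2 and SMC4. In CENPA and CENPE the last step was upward, at 1.05 and 0.05. None of the members differed in the opposite direction, beside 8.29% of all genes. ASPM (adjusted p = 0.0820) and SMC2 (adjusted p = 0.0830) came nearest. An early and a late group of members was therefore not told apart by this test, and 1 member passed without 90dG replicate 1.

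**Figure D4:**
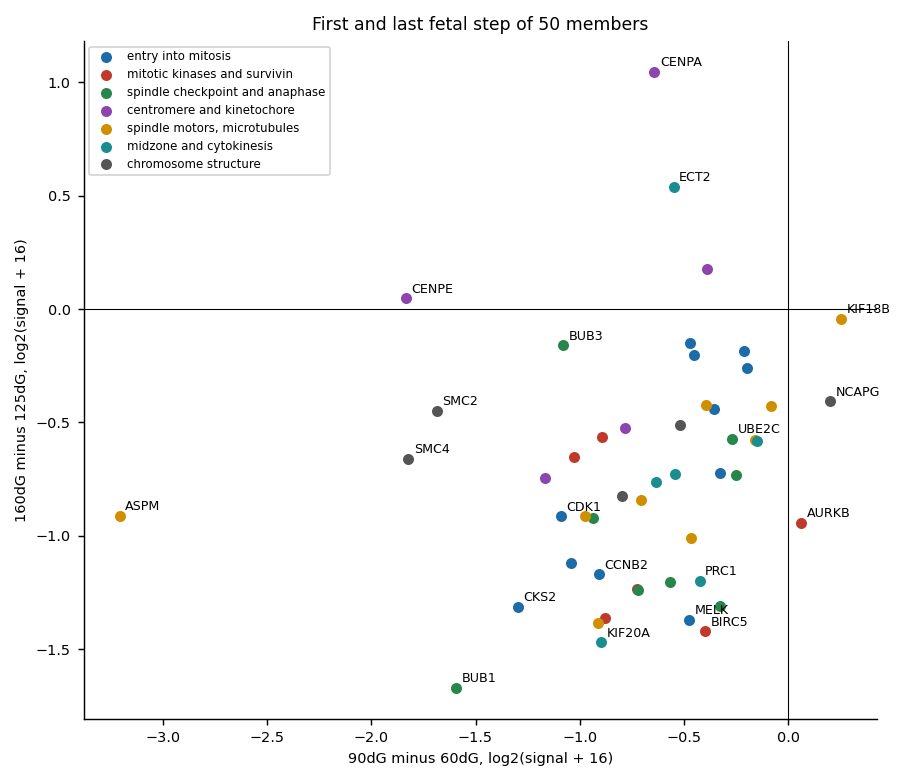
Fitted 90dG minus 60dG difference (x axis) against fitted 160dG minus 125dG difference (y axis) in log2(signal + 16), with 1 point per member coloured by role. ASPM, CENPE, SMC4 and SMC2 lie farthest to the left, 46 of 50 members lie below 0 on the y axis and 47 left of 0 on the x axis.

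Further probe sets gave a second reading of 17 members, 24 probe sets in all. Of these 22 had a negative 160dG minus 60dG difference, and 9 passed as lower. The second probe set of TOP2A gave -3.23 ± 0.59 (adjusted p = 0.00423), that of NUSAP1 -3.51 ± 0.54 (adjusted p = 0.00121) and that of CDK1 -2.30 ± 0.35 (adjusted p = 0.00113). AURKA, not called from its brightest probe set, fell by 1.81 ± 0.35 from the other one (adjusted p = 0.00662). The same held for NEK2, whose other probe set gave -1.83 ± 0.52 (limma, adjusted p = 0.0496). Other called members were not called from their further probe sets. The second one of BIRC5 gave -1.04 ± 0.43 (adjusted p = 0.195), those of BUB1 gave -2.27 and -0.43, and those of PLK4 -0.62 and -0.36. KIF2C (-0.66), NCAPG (-1.44), SMC4 (-0.41 and -0.27) and SMC2 (-0.44) had no call there either. The positive differences were those of CDC25C (0.08) and of the MKI67 probe set above (0.21).

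Members resembled each other across the 11 fetal arrays. Each member was correlated with the median of the other members' centred values on each array. This correlation had a median of 0.83, was over 0.8 in 28 members and was under 0.5 in 5. CKS2 had the highest value (0.98) and ECT2 the lowest (-0.12), followed by BUB3 (0.17) and CENPA (0.23). These points share the arrays and the order of the stages. Outside the list, the genes nearest in pattern to the members' median were KPNA2, an importin (r = 0.978), EZH2, a histone methyltransferase (0.975), HDAC3, a histone deacetylase (0.963), BASP1 (0.962), RAN, the GTPase of nuclear transport and spindle assembly (0.960), the replication helicase subunit MCM6 (0.958), the cartilage collagen COL2A1 (0.951), the chromatin protein HMGA2 (0.951), the histone H2AX (0.950) and TRMT5 (0.946). The comparison covered 5253 genes outside the list whose mean exceeded the all-probe-set median, and no dimmer gene.

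Other lists of the cell cycle held called genes as well. Of 45 further mitosis genes on the array, 13 were lower at 160dG and 10 fell for the line, none was higher, and the median difference was -0.77. Of all 9580 genes, 2.69% were lower at 160dG, 2.62% fell for the line and 366 were higher at 160dG. MYBL2, a transcription factor of G2 and M genes, and CDCA3, a mitotic entry factor, had the lowest differences, -2.93 ± 0.50 and -2.41 ± 0.65; STMN1, a tubulin-binding protein (0.81 ± 0.52), and FZR1, the other activator of the anaphase-promoting complex (0.04 ± 0.28), had the highest and did not pass. Of 33 genes of G1/S control and replication, 11 were lower at 160dG and 9 fell for the line, beside the same shares of all genes. Their median difference was -0.86. Thymidylate synthase (TYMS) and the helicase subunit MCM2 had the lowest differences, -2.07 ± 0.46 and -1.91 ± 0.34, and RFC5 (0.21 ± 0.48) and GINS1 (-0.04 ± 0.27) had the highest differences. None of 8 CDK inhibitors and pocket proteins passed in either direction for either measure. At an unadjusted p under 0.05, 1 of the 8 had a rising line, beside 9.22% of all genes. Their median difference was 0.18; CDKN1A (-0.39 ± 0.58) and RB1 (-0.22 ± 0.33) were lowest and the inhibitors CDKN1C (0.44 ± 0.22) and CDKN1B (0.29 ± 0.38) highest.

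Markers of cell types moved over the same stages, and their part in the members' fall was not tested. Of 8 nephron progenitor markers, 5 were lower at 160dG, where 2.69% of all genes were, and their summed signal was 2055 to 2336 at 160dG against 4179 to 4785 at 60dG. Of 8 proximal tubule markers, 5 were higher, where 366 of all 9580 genes were, with sums of 6204 to 14797 at 160dG against 1751 to 2228 at 60dG. The sum of 9 stroma markers was 23514 to 27626 at 160dG against 29346 to 31335 at 60dG, and was highest at 90dG (34129 to 42314). Within the stroma list FOXD1 passed as lower at 160dG, and PDGFRA and TCF21 passed as higher. The sum of 8 endothelial markers was 2825 to 3056 at 160dG against 1961 to 2076 at 60dG, and 1 of them passed as higher. That of 6 erythroid markers was 990 to 1228 at 160dG against 1868 to 3453 at 60dG. Within the erythroid list the embryonic globins HBE1 and HBZ were lower and the adult globin HBB and the anion exchanger SLC4A1 higher. The sum of 6 leukocyte markers was 598 to 839 at 160dG against 411 to 484 at 60dG.

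Adult kidneys were hybridised to another array type, so age and array type cannot be told apart, and no test was made. The members showed no common further drop on the adult arrays. All adult arrays lay below all 160dG arrays in 8 members, where 20.7% of all genes did, and above them in 14, where 29.1% of all genes did; both shares of the 50 are near or under that of all genes. The median adult minus 160dG difference was 0.48 in the members and 0.12 over all genes, and the summed member signal was 7761 to 8293 in the adult kidneys and 6604 to 8428 at 160dG.

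The 8 below were CDK1, PRC1, TOP2A, PLK4, NDC80, SMC4, KIF20A and SMC2. CDK1 was at 49.0, 51.7 and 59.2 in adult kidneys against 249, 476 and 392 at 160dG, TOP2A at 34.8, 11 and 33.4 against 89.6, 159 and 111, and PRC1 at 18.3, 24.4 and 35.8 against 123, 172 and 115. CKS2, the steepest of the fetal fallers, was level, with 126, 119 and 143 in adult kidneys and 111, 142 and 134 at 160dG. Among the 14 above were MKI67, with 306, 255 and 244 in adult kidneys against 142, 139 and 95.8 at 160dG, UBE2C, with 424, 490 and 603 against 270, 354 and 305, and ECT2, with 83.8, 138 and 160 against 40.8, 50.2 and 39.3. The adult arrays of MKI67 overlapped its 60dG arrays, at 249 and 303. The scaling mattered for this comparison: with quantile normalization 11 members were below and 10 above, and with equal array medians 11 and 12. Of all genes, 21.8% were below and 26.5% above with quantile normalization, and 26.1% and 23.2% with equal array medians. The median difference was then 0.27 in the members and 0.07 over all genes with quantile normalization, and 0.33 and -0.03 with equal array medians. All 8 members named as below stayed so under both scalings; of the 14 above, CENPA and CENPE overlapped under both and FOXM1 and KIF14 with quantile normalization.

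**Figure D5:**
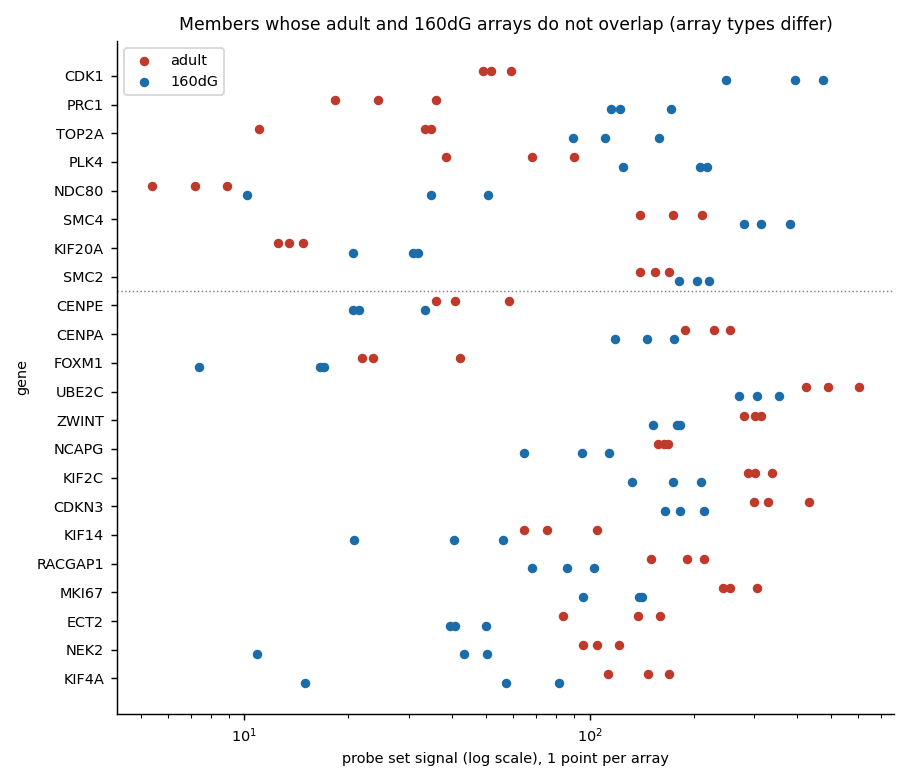
Signal on the adult (red) and 160dG (blue) arrays, 1 point per array on a log axis, for the members whose arrays do not overlap. The 8 members above the dotted line are lower on all adult arrays and the 14 under it higher; the array types differ.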

How the data were processed

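Total RNA of 14 whole baboon kidneys was labelled with biotin and hybridised to human Affymetrix arrays, per the labels' protocols. The authors deposited linear signal intensities; per the submitters' processing notes GCOS was used, and its algorithm and scaling were not stated in the sources at hand. The largest ratio between trimmed means of 2 fetal arrays was 1.02, so no rescaling was made. Of 16186 probe sets (43 controls), 14068 had 1 gene symbol, 735 several and 1340 none; those with several or none were not named. Values were analysed as log2(signal + 16), which understates the change of dim genes. limma 3.58.1 in R 4.3.3 (lmFit; eBayes with an intensity trend) was fitted over the 11 fetal arrays and all 9580 genes with no filter on level, so that dim members were kept, and p-values were adjusted by Benjamini-Hochberg over all of them. Arrays limit precision by their number, and p-values measure the spread between these arrays. The labels' replicate numbers did not pair the samples. Genes in each role were described by rule: the 2 lowest and 1 highest 160dG minus 60dG differences, up to 4 uncalled, the extremes of each step, and MKI67, TOP2A, CDK1 and CCNB1; the others named were chosen after their values were seen. Members and lists were chosen with earlier results of these data known. The fit was tested on simulated data. Alternatives covered pseudocount, level filter, normalization, variance prior, weights, probe set choice, the GAPDH ratio and left-out arrays.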

Additional observations from a re-analysis of the deposited data

How the results depend on the processing

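Counts of called members depended on how many genes and arrays entered (limma throughout). Among genes above the median of all probe sets, which leaves 25 members, 18 fell for the line, 18 differed by stage and 21 were lower at 160dG than at 60dG, 4 were lower at 125dG than at 90dG, and 1 had unequal first and last steps. Among genes above the 0.75 quantile, which leaves 7, these were 5, 6 and 6, and none was lower at 160dG than at 125dG. With 1 fetal array left out in turn, the line fell in 23 to 31 members, stages differed in 21 to 28, and 19 to 34 were lower at 160dG than at 60dG; 3 to 8 were lower at 90dG than at 60dG, 0 to 2 at 125dG than at 90dG, 0 to 4 at 160dG than at 125dG, and 0 to 1 had unequal steps. Of the 32 members called at 160dG against 60dG, 19 were called in all 11 of these fits, as were 22 of the 28 called for the line.

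The single steps rest on few calls. For 90dG against 60dG, 3 members passed with the second brightest probe set and 2 without 90dG replicates 2 and 3. For 125dG against 90dG, 1 passed with log2(signal + 1), with the mean of all probe sets, with the second brightest and without 90dG replicates 2 and 3, and 0 with no intensity trend or with the GAPDH ratio as a covariate. For 160dG against 125dG, 1 passed with log2(signal + 64), without the 90dG group and without 90dG replicates 2 and 3, 0 with no intensity trend, and 5 with array weights. With log2(signal + 64), 1 member had unequal steps. The cause of these changes was not tested. The slope of CDC25C reversed with its second brightest probe set (0.030 per 10 days, adjusted p = 0.832).

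Same-numbered arrays of different stages had correlations of their deviations between -0.04 and 0.11, so the numbers did not pair them. With the replicate number as a block, 26 members fell for the line, 24 differed by stage and 28 were lower at 160dG than at 60dG. In that fit 196 of all 9580 genes fell for the line, 623 differed by stage and 204 were lower at 160dG than at 60dG. For the successive steps 4, 1 and 0 members were lower, and 0 had unequal steps.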
